A study of Mus musculus with 4 samples.

Results

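The linker and core histone variants of the testis were followed in the RNA of whole testes from mice that lack Taf7l and from wild type mice. The list held 10 genes: the linker histone genes H1f6, H1f7, Hils1, H1f0 and H1f10 and the core histone genes H2bc1, H2az1, H2al3, H3f3a and H3f3b. Members were found by the gene symbol that the platform annotation gives to each probe set, and probe sets naming several genes were dropped. This left 10 probe sets for 8 of the 10 genes, out of 45037 mouse probe sets. H1f0 and H2bc1 were named by no probe set of the annotation and are not analysed here. The rule dropped 7 shared probe sets, 5 of which name H3f3a and H3f3b together and 2 of which name H2az1 and Gm8203.

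Total RNA came from testes of male C57BL/6J mice aged 8 weeks, taken from littermates of both genotypes, and was hybridised as biotinylated cRNA to Affymetrix arrays. There were 4 arrays, 2 of wild type and 2 of Taf7l knockout testis. The title of the second knockout array gives it the number 2 and its description the number 1, so separate animals are not certain for that pair. Every p-value therefore measures only how far these arrays differ, and that spread may be technical. Taf7l encodes a germ cell relative of Taf7, a subunit of the general transcription factor TFIID, and how the mutant allele was made is not stated in the sources used here. The deposited values are linear signals, whose median lay between 45.2 and 45.7 on all 4 arrays. Their trimmed mean was 509 for each wild type array and 465 and 481 for the knockout ones. Wild type replicate 2 and knockout replicate 2 shared identical values at 2385 probe sets, while every other pair of arrays shared 228 to 620. Taf7l stood at 829 and 818 in wild type and at 80.6 and 72.5 in the knockout. Its log2 difference was −3.43 (SE 0.097, limma adjusted p = 0.0033).

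Nucleosomes wrap DNA around core histones, and a linker histone binds where the DNA enters and leaves. Male germ cells replace much of this set with variants made for meiosis and for the round and elongating spermatid, before transition proteins and protamines take over the condensing nucleus. H1f6 encodes H1t, the linker histone of pachytene spermatocytes and round spermatids. H1f7 encodes H1t2, which gathers at 1 pole of the spermatid nucleus, and Hils1 encodes a linker-like protein of elongating spermatids. H2al3 belongs to the H2A.L family of short testis histones, many of them X-linked. H2az1 encodes the H2A.Z variant found at promoters, and H3f3a and H3f3b both encode the replication-independent histone H3.3. H1f10 encodes the H1x linker histone of somatic cells.

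Of the 8 genes measured, 7 were tested, and H3f3b was too dim to test. H2al3 fell in the knockout, to 1.97-fold below wild type, and no other gene tested was called. The probe sets of the linker genes Hils1 and H1f7 were nearly level, all within 0.08 of wild type on the log2 scale. H1f6, at a dim probe set, differed by −0.19 and was not called. H2az1 lay close to wild type. H3f3a did too, but only at a dim probe set whose spread is not a measure of replicate error. Differences are knockout minus wild type in mean log2 signal, tested with limma and adjusted by Benjamini-Hochberg over the 22519 probe sets whose mean signal was at least 45.8, with an adjusted p under 0.05 counted as a call. Of the 10 member probe sets, 9 were tested, and 1 of these 9 was called, where 1.39% of all probe sets were called and 0.941% were called as lower. The wild type and knockout values did not overlap in 5 of the 9, all lower in the knockout, where 55.0% of all probe sets did not overlap and 36.3% were lower without overlap. The median difference over the 9 was −0.08, beside −0.05 over all probe sets tested. An exact permutation test of 2 arrays against 2 cannot go below p = 0.333, so single values rest on the fit across all probe sets.

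**Figure D1:**
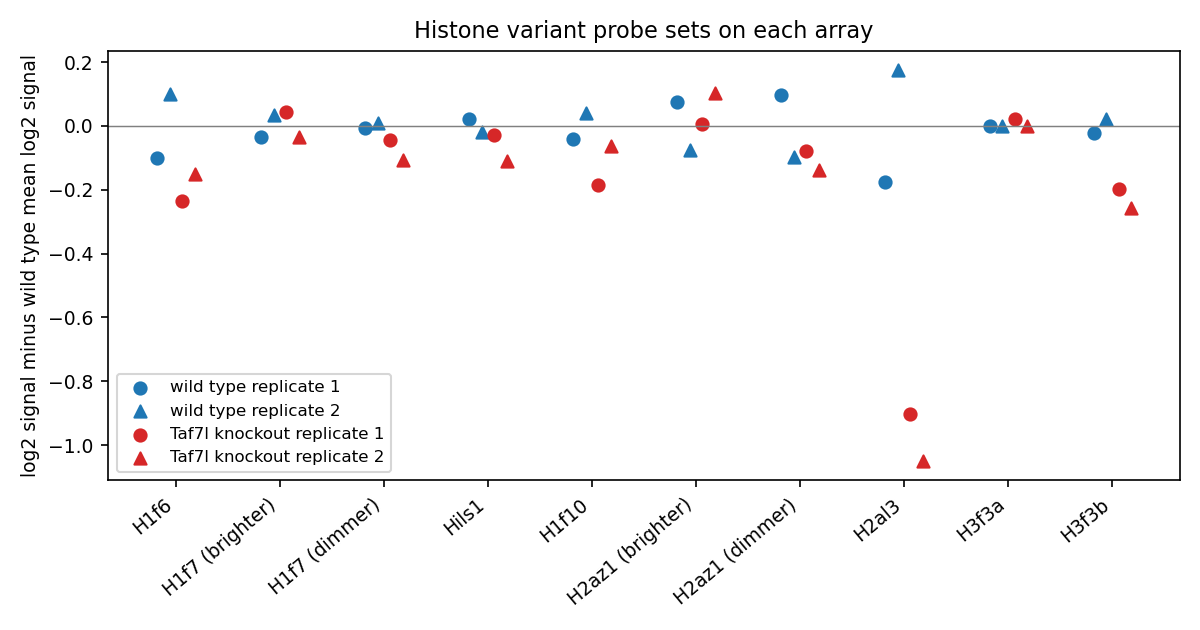
Signal of each histone variant probe set on each of the 4 arrays (y axis: log2 signal minus the mean log2 signal of the 2 wild type arrays; circles, replicate 1; triangles, replicate 2; blue, wild type; red, Taf7l knockout). H2al3 is the probe set whose knockout points lie far below its wild type points; for H3f3a 3 of the 4 points are the same value.

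The H2al3 probe set had signals of 3899 and 4965 in wild type testis and 2354 and 2125 in knockout testis. Both knockout values lay well below both wild type values, and wild type replicate 2 was the highest of the 4. The mean fell from 4432 ± 754 to 2239.5 ± 162 (SD, n = 2 each), a log2 difference of −0.98 (SE 0.13, 95% interval −1.31 to −0.64, limma adjusted p = 0.049). The gap between genotypes was larger than the gap between replicates, which was 0.35 in wild type and 0.15 in the knockout on the log2 scale. Of all probe sets tested, 0.542% had a larger difference in either direction. The size kept its sign under every alternative that was run, from −0.80 without wild type replicate 2 to −1.15 without wild type replicate 1, but the call was not secure. It was lost after quantile normalization (adjusted p = 0.062), with no filter on signal (0.171), without a variance trend (0.081), with a robust prior (0.051) and without any 1 array, at adjusted p of 0.354 and 0.296 without wild type replicates 1 and 2 and of 0.152 and 0.099 without knockout replicates 1 and 2.

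**Figure D2:**
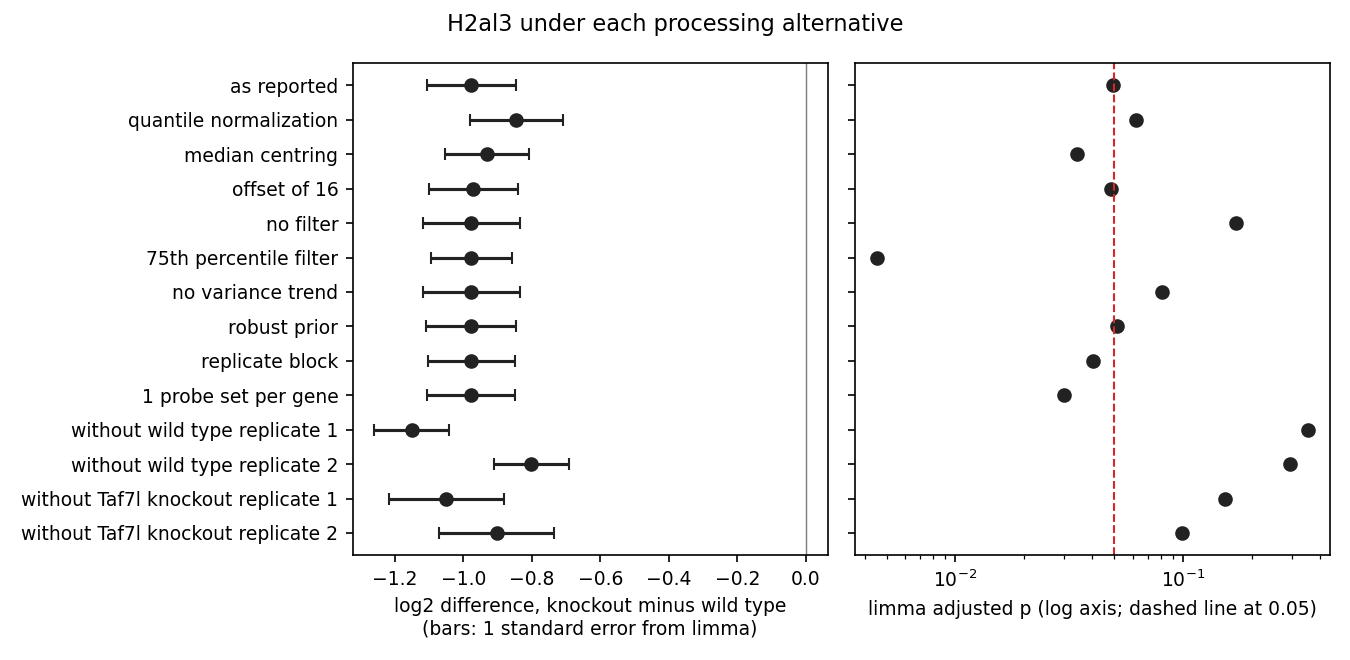
The H2al3 difference under each way of processing (left: log2 difference, knockout minus wild type, with bars of 1 standard error from limma; right: limma adjusted p on a log axis, dashed line at 0.05). The difference stays between −1.15 and −0.80, while the adjusted p falls on both sides of 0.05.

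H2al3 is X-linked and was the only member on that chromosome. In the RefSeq gene order of GRCm38.p6 the protein-coding gene just before it is H2ap, which encodes another short H2A variant of testis. H2ap had signals of 14770.0 and 15086 in wild type and 12141 and 12093 in the knockout. These did not overlap, and the difference of −0.30 (SE 0.046) was not called (adjusted p = 0.051). A further probe set names 11 genes of the H2al1 group, X-linked H2A.L histones that it cannot tell apart. It had 8477 and 9543 in wild type and 6187 and 6354 in the knockout, a difference of −0.52 (SE 0.073) that was also not called (adjusted p = 0.051), and it was chosen after its values were seen. Both kept their sign after quantile normalization and median centring, at −0.22 and −0.26 for H2ap and −0.41 and −0.47 for the H2al1 probe set, the last with an adjusted p = 0.039. H2al2a, a further gene of the H2A.L family, had 9482 and 10282 in wild type and 9751 and 8816 in the knockout. Its groups overlap, and its difference of −0.09 was not called (adjusted p = 0.52). Whether the H2al3 probes also bind transcripts of these relatives is not stated in the sources used here. Rpgr, the retinal cilium gene that follows H2al3 after 1 other protein-coding gene, was called, at 913 and 913 in wild type and 578 and 550.0 in the knockout (log2 difference −0.69, SE 0.074, limma adjusted p = 0.047). That call was lost after quantile normalization (difference −0.61, adjusted p = 0.054). The other neighbours tested, among the 5 protein-coding genes on either side, were not called. Dynlt3, a dynein light chain gene, had differences of −0.32, −0.04, 0.02 and 0.16 at its 4 probe sets (adjusted p from 0.17 to 0.93), and Mid1ip1 differed by −0.08 (adjusted p = 0.61).

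The promoters of H2al3 and of the germ cell linker histone genes are shown because Taf7l encodes a relative of a core promoter factor, and these are the testis-restricted members that were measured. Each window runs 5′ to 3′ on the gene's own strand, from 250 bases before the RefSeq start to 50 bases after it, and comes from the RefSeq table of build GRCm38.p6, in which all 10 members were matched. Capitals mark matches, on either strand, to TATAA (the core of the TATA box), CCAAT (bound by NF-Y), GGGCGG (the GC box bound by Sp1) and TGACGTCA (the cAMP response element bound by CREM). In these 4 windows only the TATAA matches of H2al3 overlap.
H2al3 (chrX:9849453-9849752, + strand): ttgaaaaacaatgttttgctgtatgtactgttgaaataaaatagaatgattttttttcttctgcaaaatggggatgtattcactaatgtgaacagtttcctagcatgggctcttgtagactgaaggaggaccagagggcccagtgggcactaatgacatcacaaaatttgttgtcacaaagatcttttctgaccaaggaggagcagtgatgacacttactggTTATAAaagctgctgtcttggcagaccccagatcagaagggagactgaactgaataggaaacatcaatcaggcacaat
H1f6 (chr13:23695561-23695860, + strand): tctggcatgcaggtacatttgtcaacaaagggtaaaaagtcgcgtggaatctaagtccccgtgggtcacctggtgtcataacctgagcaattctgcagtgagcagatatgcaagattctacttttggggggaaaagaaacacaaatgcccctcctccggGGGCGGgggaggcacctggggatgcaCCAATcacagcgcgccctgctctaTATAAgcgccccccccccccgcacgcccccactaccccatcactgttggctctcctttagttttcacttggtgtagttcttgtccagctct
H1f7 (chr15:98257258-98257557, - strand): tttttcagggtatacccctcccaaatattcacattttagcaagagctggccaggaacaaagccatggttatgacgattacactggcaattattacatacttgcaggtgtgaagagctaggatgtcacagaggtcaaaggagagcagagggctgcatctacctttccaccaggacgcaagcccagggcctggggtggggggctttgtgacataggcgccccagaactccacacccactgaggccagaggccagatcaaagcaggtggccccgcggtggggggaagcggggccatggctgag
Hils1 (chr11:94967343-94967642, + strand): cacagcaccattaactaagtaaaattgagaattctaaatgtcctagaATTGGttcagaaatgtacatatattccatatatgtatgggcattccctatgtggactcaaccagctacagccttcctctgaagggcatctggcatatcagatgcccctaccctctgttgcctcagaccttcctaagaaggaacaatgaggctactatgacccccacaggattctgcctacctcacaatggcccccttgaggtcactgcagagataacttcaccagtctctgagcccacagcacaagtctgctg

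The H2al3 window held TATAA at position −27, counted to the first base of the match with the start as +1, in a TTATAA run that reads the same on both strands, and none of the other motifs. H1f6 held TATAA at −41, CCAAT at −65 and GGGCGG at −91. Hils1 held 1 CCAAT, on the opposite strand at −203, and H1f7 held none of the 4 motifs. Among the windows not printed, H3f3b held TATAA at −27 and H2bc1 at −94, and both held 4 CCAAT matches. The windows of H2az1 and H3f3a held CCAAT and GGGCGG, and those of H1f0 and H1f10 held GGGCGG alone. TATAA stood in 4 of the 10 member windows. Of 32851 promoter windows of this length, 24.9% held TATAA, 37.4% held CCAAT, 35.7% held GGGCGG and 1.79% held TGACGTCA, which no member window held. TATAA on the gene's own strand with its first base 40 to 21 bases before the start, where H2al3 and H3f3b had it, was found in 3.51% of windows. These matches are letters in a window and were not tested for binding.

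Hils1, the spermatid linker-like gene, had signals of 33709.8 and 32778 in wild type and 32585 and 30811 in the knockout. Both knockout values were lower, by little. The difference was −0.07 (SE 0.049, 95% interval −0.19 to 0.06, limma adjusted p = 0.45), and after quantile normalization it was −0.01. The brighter H1f7 probe set is of a kind whose probes may be shared between transcripts. It had 19407 and 20381 in wild type and 20498 and 19409 in the knockout. These values overlap fully, at a difference of 0.00 (interval −0.13 to 0.14, limma adjusted p = 0.97). The dimmer H1f7 probe set had 17820 and 18016 in wild type against 17373 and 16653 in the knockout. Here the groups did not overlap, and the difference was −0.08 (interval −0.20 to 0.05, limma adjusted p = 0.40), which became 0.01 after quantile normalization. For Hils1 and H1f7 the 95% intervals reach down to −0.20 on the log2 scale, and the interval of H2al3, −1.31 to −0.64, lies apart from them. The interval of H1f6, described below, reaches down to −0.48. The difference between H2al3 and the linker genes was not itself tested.

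H1f6, the linker gene of pachytene spermatocytes and round spermatids, was measured by a dim probe set. Its signals were 93.8 and 108 in wild type and 85.5 and 90.6 in the knockout. Each knockout value was under each wild type value, but the wild type replicates were themselves 0.20 apart on the log2 scale. The difference of −0.19 (SE 0.11, interval −0.48 to 0.10) was not called (limma adjusted p = 0.36). These signals lie near the filter level of 45.8. H1f10, the somatic linker gene, had 583 and 616 in wild type and 527 and 574 in the knockout. The groups did not overlap, and the difference of −0.12 (SE 0.087, interval −0.34 to 0.10) was not called (limma adjusted p = 0.44).

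H2az1 was seen by 2 probe sets of its own, and they did not give the same sign. The brighter, of a kind whose probes may bind other transcripts, had 12170 and 10983 in wild type and 11600.0 and 12415 in the knockout (difference 0.05, interval −0.13 to 0.24, limma adjusted p = 0.70). The dimmer had 8078 and 7060 in wild type and 7151 and 6863 in the knockout (difference −0.11, interval −0.31 to 0.10, limma adjusted p = 0.47), which was 0.00 after quantile normalization. In the first the groups overlap, and in the second knockout replicate 1 lies between the wild type values. The 2 probe sets that H2az1 shares with Gm8203 had signals between 21109 and 25897 on all arrays and differences of −0.02 and 0.05, with 0 called (limma adjusted p = 0.78 and 0.81).

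The H3.3 genes were poorly covered by probe sets of their own. The H3f3a probe set had 63.6 on both wild type arrays and on knockout replicate 2, the same value to every deposited digit, and 64.5 on knockout replicate 1. Its difference was 0.01 (interval −0.22 to 0.24, limma adjusted p = 0.96), and with 3 equal values the spread of this probe set is not a measure of replicate error. The H3f3b probe set had 28.5 and 29.4 in wild type and 25.2 and 24.2 in the knockout, all under the filter level of 45.8, so it was not tested. The 5 probe sets shared by H3f3a, H3f3b and related genes were bright, between 12834 and 26453, and 0 of 5 were called. Their differences ran from −0.22 to 0.03. The lowest was at a probe set with 18832 and 18520 in wild type and 14761 and 17488 in the knockout. There the groups did not overlap, and the spread between the knockout replicates was wide (difference −0.22, interval −0.44 to 0.01, limma adjusted p = 0.21).

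**Figure D3:**
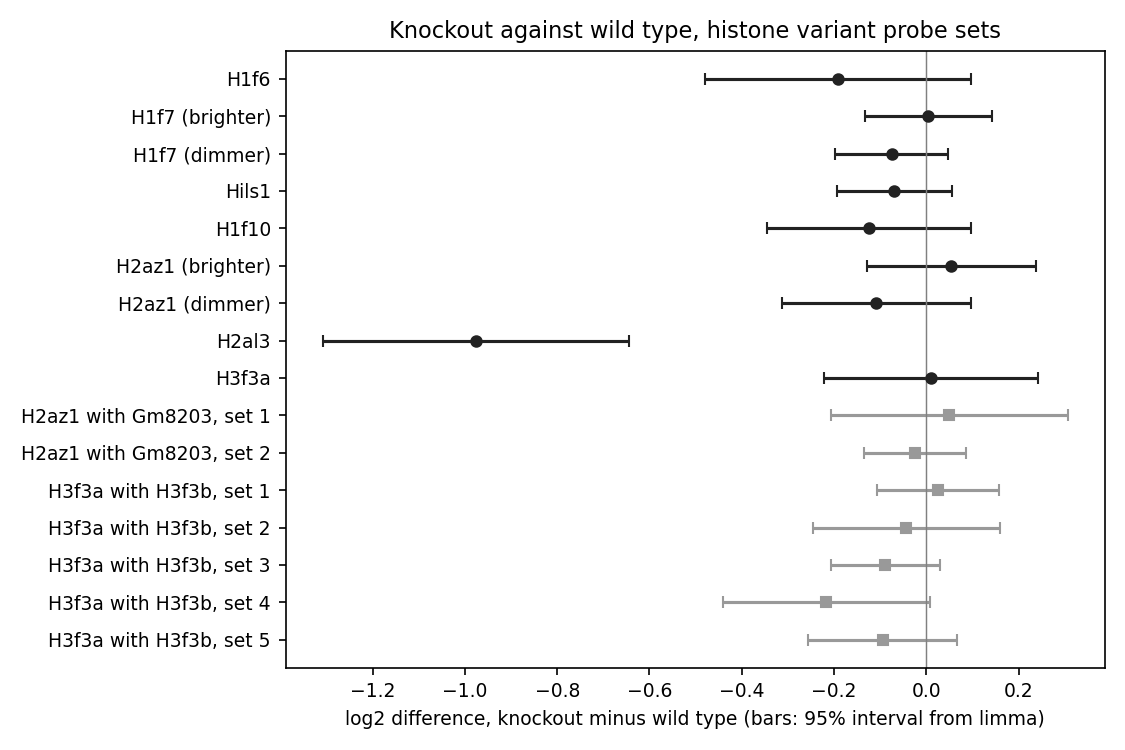
Differences between knockout and wild type for the 9 tested probe sets of the histone variant genes (black circles) and the 7 probe sets they share with other genes (grey squares); x axis, log2 difference, knockout minus wild type, with 95% intervals from limma. The H2al3 interval, −1.31 to −0.64, lies wholly below 0, and each other interval includes 0.

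Taken without H2al3, the 8 tested probe sets had differences between −0.19 and 0.05 and intervals that reached from −0.48 to 0.24. None had an unadjusted p under 0.05 in limma. Of these 8, 4 had groups that did not overlap, each lower in the knockout, where 36.3% of all probe sets were lower without overlap. The sign of small differences rested on the scaling. As deposited, 6 of the 9 tested member probe sets were lower, where 60.0% of all probe sets were, and after quantile normalization 4 were. Quantile normalization moved the median difference over the 9 from −0.08 to 0.00, and that over all probe sets tested from −0.05 to −0.0038.

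Other histone genes were counted from a list that took every further linker and core histone symbol. Of 19 such genes with a probe set, 14 were tested, and at the brightest probe set of each 0 were called by limma and 6 had an unadjusted p under 0.05. For comparison, 1.74% of all genes were called at their brightest probe set and 27.9% had an unadjusted p under 0.05. Of the 14, 10 were lower and 4 higher, with a median of −0.13 and a range from −0.43 to 0.29, beside 60.7% lower and a median of −0.05 over all genes. After quantile normalization 8 were lower and 6 higher, where 6167 of all 12241 genes were lower. The smallest p belonged to H2ap, described above. Macroh2a1, which encodes the macroH2A1 variant of repressed chromatin, had 2245 and 2162 in wild type and 2683 and 2718 in the knockout (difference 0.29, SE 0.061, limma adjusted p = 0.071). H2ax, whose product is phosphorylated at DNA breaks and on the sex body, had 1418 and 1170.0 in wild type and 978 and 934 in the knockout (difference −0.43, SE 0.11, limma adjusted p = 0.097). Groups did not overlap for either gene, and neither passed.

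**Figure D4:**
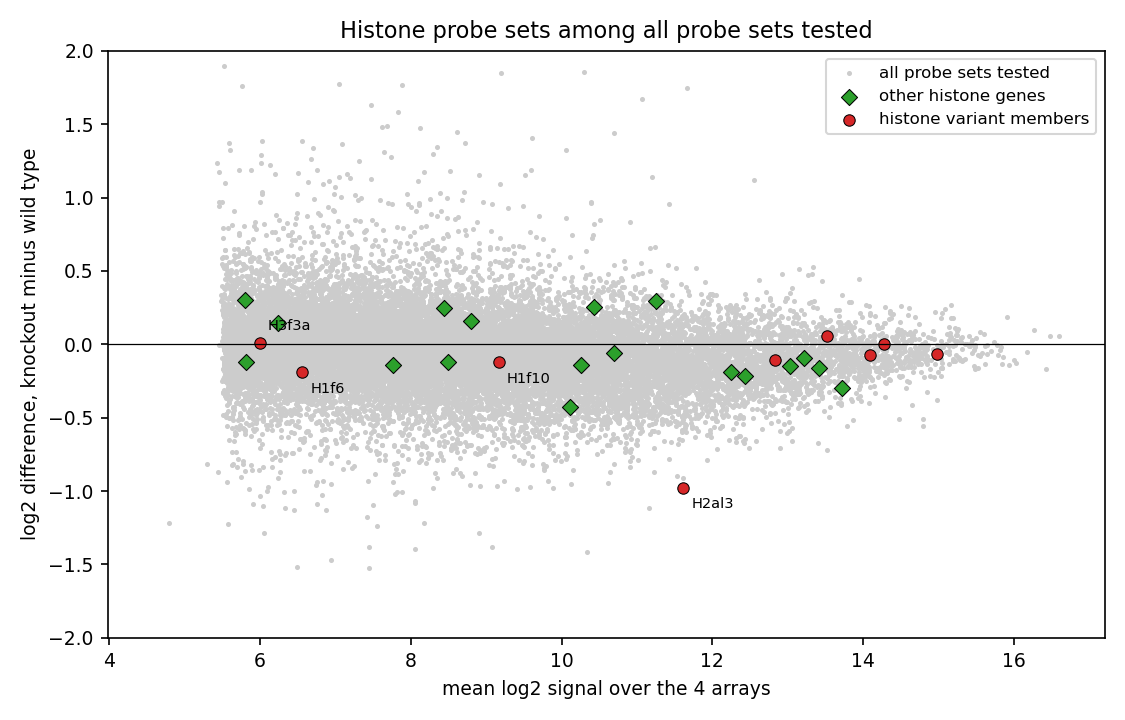
Log2 difference, knockout minus wild type (y axis), against mean log2 signal over the 4 arrays (x axis) for all 22519 probe sets tested (grey), the other histone genes (green diamonds) and the histone variant members (red circles); 12 grey points lie outside the limits of the y axis. H2al3 stands at the lower edge of probe sets of its brightness, and the members at the bright end, H2az1, H1f7 and Hils1, lie near 0.

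Histone chaperones and the proteins that import, deposit or exchange histones were counted in the same way. Of 35 genes tested from a list of 41, 1 was called, where 1.74% of all genes were. This was Ipo4, an importin that carries histones into the nucleus. Its brighter probe set had 8468 and 8655 in wild type and 6136 and 6229 in the knockout (difference −0.47, SE 0.051, limma adjusted p = 0.047). Its dimmer one differed by −0.27 without being called (adjusted p = 0.082), and the call was lost after quantile normalization (adjusted p = 0.056). Ruvbl2, an ATPase of the SRCAP and INO80 remodelling complexes, had 3610 and 3627 in wild type and 2633 and 2759 in the knockout, at an adjusted p = 0.051. Znhit1, a subunit of the SRCAP complex that deposits H2A.Z, had 5829 and 6029 against 4568 and 4792 at its dimmer probe set, with an adjusted p = 0.057. Its brighter probe set had 17702 and 18662 against 15462 and 15908 (difference −0.21, adjusted p = 0.088). At the brightest probe sets Nasp, a histone chaperone gene, had a smaller p than Znhit1 and was higher in the knockout. It had 16113 and 16235 in wild type and 18799 and 18651 in the knockout (difference 0.21, limma adjusted p = 0.072). Ruvbl2, Znhit1 and Nasp all lie outside the threshold. The 35 genes split into 18 lower and 17 higher, where 60.7% of all genes were lower, with a median of −0.05, equal to that over all genes to 2 decimals. After quantile normalization 13 were lower and 22 higher, where 6167 of all 12241 genes were lower.

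Markers of the cells that make these histones, and of other testis cells, were read beside H2al3, and over all genes 60.7% were lower. After quantile normalization 6167 of all 12241 genes were lower. All 11 round spermatid markers tested were lower at their brightest probe set (median −0.27, range −0.51 to −0.05), and 10 of 11 were after quantile normalization (median −0.14). Their summed signal was 103722 and 99686 in wild type and 83309 and 91368 in the knockout. Of 11 elongating spermatid markers 9 were lower (median −0.14, and −0.09 after quantile normalization), with summed signals of 539555 and 521197 against 505473 and 485672. Of 11 pachytene spermatocyte markers 9 were lower (median −0.10), with 229678 and 227165 against 212414 and 211564, and 5 were lower after quantile normalization (median 0.00). Of 7 spermatogonial markers 3 were lower (median 0.07), with sums of 16900 and 16543 against 12892 and 14504. Dmrtb1 made up 89.4% of that spermatogonial sum, at 15352 and 14922 in wild type and 11209 and 12912 in the knockout, and was not called (adjusted p = 0.086). The H2al3 difference of −0.98, the largest among the members, lay below the range of each of these lists at the brightest probe sets. Whether the shifts in these lists bear on H2al3 was not tested.

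Most somatic markers read higher in the knockout. Of 8 Sertoli cell markers 7 were higher (median 0.18), with summed signals of 59696 and 58026 in wild type and 74205 and 71265 in the knockout. Of 5 Leydig cell markers 4 were higher (median 0.19), with 15268 and 14946 against 18816 and 18754, and all 8 macrophage and leukocyte markers were higher (median 0.16), with 1936 and 2080 against 2395 and 2405. Single genes carried much of these sums. Cyp17a1 made up 80.1% of the Leydig cell sum, Clu 56.3% of the Sertoli cell sum and C1qb 44.7% of the macrophage and leukocyte sum. No tested marker was listed at 0. Of 90 marker probe sets tested 2 were called, or 2.22%, where 1.39% of all probe sets were, the lower of them for Acrbp, an acrosome gene, and the higher for Cyp17a1, a Leydig cell enzyme gene. In whole testis, fewer cells of a type and less RNA per cell cannot be told apart, and the part of these shifts in the H2al3 result was not tested.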

How the data were processed

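The deposited table holds linear intensity values, 1 signal per probe set and array, which the submitters' processing notes trace to MAS5 with no version or scaling target. Further steps behind the deposited signals, and the genome build, are not stated in the sources used here. For 45037 mouse probe sets log2 signals were used, offset 0, and those with a mean signal at or above the median (45.8) were kept, 22519 in all. Genes were named by the platform annotation (34945 probe sets with 1 symbol, 932 with several, 9160 unnamed), with symbols updated through RefSeq for 34741. The genotypes were compared in R 4.3.3 by limma 3.58.1 (lmFit, eBayes with a variance trend), genotype as the only term, two-sided, with Benjamini-Hochberg adjusted p-values over all kept probe sets. The fit had 2 residual and 3.17 prior degrees of freedom. Precision is limited by the number of arrays. The procedure was tested on simulated data. The members and gene lists were chosen with earlier results of these data known. Named were all members, Taf7l, called genes of the lists, and otherwise the 3 smallest p over every probe set of a list. Nasp was added for its brightest probe set. Alternatives were other normalizations, offsets, filters, priors, a replicate block, 1 probe set per gene, an adjusted p under 0.10 and leaving out each array.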

Additional observations from a re-analysis of the deposited data

How the results depend on the processing

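The histone variant count was 1 as reported. It was 0 after quantile normalization, with no filter, without a variance trend and with a robust prior, and 0 with any array left out. The median difference over the member probe sets was −0.08 as reported. It ran from −0.11 without knockout replicate 1 to 0.00 after quantile normalization. Signs of small differences turned in places: the dimmer H1f7 probe set was at 0.0050 and the dimmer H2az1 probe set at 0.0030 after quantile normalization, and with arrays left out in turn the brighter H1f7 probe set ran from −0.035 (without knockout replicate 1) to 0.044, at −0.031 without wild type replicate 1, and the brighter H2az1 probe set from −0.020 (without wild type replicate 2) to 0.13. The count of other histone genes was 3 with the 75th percentile filter and at an adjusted p under 0.10, and 1 with 1 probe set per gene. The chaperone count was 0 after quantile normalization, with no filter and without a variance trend, 2 with median centring and with 1 probe set per gene, 6 with the 75th percentile filter and at an adjusted p under 0.10, and 0 in each fit that lacked an array. The cause of these changes was not tested. Calls over all probe sets rose as well, to 2375 of 11260 with the 75th percentile filter. They were 2628 of 22519 at an adjusted p under 0.10 and 806 of 12241 with 1 probe set per gene. With no filter they were 0 of 45037, so a count of 0 there is not particular to any list. Without a variance trend they were 36 of 22519, and with a robust prior 217 of 22519. Over all probe sets, the share of calls that were higher was 32.1% as deposited, 61.5% after quantile normalization and 40.6% after median centring, and the count of calls was 312, 148 and 697. With any 1 array left out it was 0, with 3076 to 5499 at an unadjusted p under 0.05, and the Taf7l difference stayed between −3.50 and −3.35 without being called, nor was it called with no filter (adjusted p = 0.065). With the replicate number as a block, the H2al3 adjusted p was 0.040 and 1 member was called; same-numbered arrays did not deviate together (correlation 0.03), so the numbers were not read as pairs. When an array was left out, the array left alone in its group was assumed to vary like the others. Dim probe sets, those of H1f6, H3f3a and H3f3b here, limit what can be seen.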

Other observations

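Replication-dependent histone genes are so alike that most of their probe sets name several genes, and these were not in the lists above. There were 17 such probe sets for the H2A, H2B, H3 and H4 clusters, of which 11 were tested, 9 lower and 2 higher in the knockout, with a median of −0.11, where 60.0% of all probe sets tested were lower. A shared probe set for Macroh2a2 and Macroh2a3 was left out of this count and differed by 0.14 (limma adjusted p = 0.64). Of the 11 tested, 1 was called, where 1.39% of all probe sets were called and 0.941% were called as lower. It names 13 histone H4 genes and had 3786 and 4025 in wild type and 2403 and 2559 in the knockout. Its log2 difference was −0.65 (SE 0.068, limma adjusted p = 0.047), and −0.52 after quantile normalization without a call (adjusted p = 0.051). A second probe set for the same 13 genes had 1401 and 1466 against 1056 and 1051 (difference −0.44, limma adjusted p = 0.051), and another, dim one, differed by −0.20 (limma adjusted p = 0.34).

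A probe set for 12 histone H3 genes was dimmer and also lower, at 296 and 351 in wild type and 188 and 167 in the knockout (difference −0.86, limma adjusted p = 0.051). The other H3 probe sets tested did not share this size, at −0.08, −0.26 and −0.02 (limma adjusted p = 0.63, 0.43 and 0.93). A probe set for 10 histone H2A genes went the other way, at 2620 and 2309 in wild type and 3295 and 3767 in the knockout (difference 0.52, limma adjusted p = 0.066). The 11-gene H2B probe set at 11645 and 11358 against 9996 and 11371 was close to level (difference −0.11, limma adjusted p = 0.43). These probe sets were chosen after their values were seen.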
